A study of Mus musculus with 12 samples.

Results

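The collagen genes of the mouse heart were measured on 12 Agilent 1-colour expression arrays. The members were all non-control probes whose gene name on the array was a collagen chain of the form Col, type number, a, chain number. That gave 78 probes of 40 genes among 41174 probes on the array, and each gene was represented by its probe with the highest mean over the 12 arrays. Of the 40 genes, 11 encode fibrillar collagens, 6 encode the basement membrane collagen of type IV, and 23 encode other types. A total of 38 were well above background on at least 3 of 12 arrays and entered the fit with 21888 genes. The fibrillar and type IV members all entered. Col12a1 was above background on 0 arrays and Col28a1 on 1 array, so neither was tested.

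Whole hearts were taken from male C57BL/6 mice of 2 genotypes at 2 ages, with 3 hearts in each of 4 groups. GRflox mice carried floxed alleles of the glucocorticoid receptor, Nr3c1, and no Cre. Their littermates, cardioGRKO mice, carried the floxed receptor allele together with Cre driven by the αMHC promoter, which is active in cardiomyocytes. Both were studied at 1 month and at 2 months of age, so sex, strain and the floxed allele were common to all groups. No group with Cre alone was measured. Non-cardiomyocytes, which include the cells that make most interstitial collagen, keep the receptor in this model. Each group held 3 mice, so p-values measure the spread between animals.

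Collagens are secreted proteins of the extracellular matrix whose chains wind into helices built on a Gly-X-Y repeat. Types I, III and V form the fibrils of the cardiac interstitium and are made mainly by fibroblasts. Type IV forms the sheet-like network of basement membranes around cardiomyocytes and vessels, and type VI forms beaded filaments between both. The early weeks after birth are a period in which the heart lays down matrix while it grows.

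The arrays had between 67.5% and 82.2% of probes well above background, and 3 of them (cardioGRKO 1 month replicate 1, GRflox 2 months replicate 2 and cardioGRKO 2 months replicate 3) lay above 79%. Correlations between arrays ranged from 0.935 to 0.987. Slides were unevenly shared: slide 1 held the 3 GRflox hearts of 1 month and no others, while slides 2, 3 and 4 held 2 groups each. The targeted gene, Nr3c1, was measured at its brightest probe at 2.66, 2.20 and 2.19 in GRflox and at 1.30, 1.35 and 1.39 in cardioGRKO at 1 month, as log2 over the 75th percentile of the array. At 2 months it was 2.26, 2.11 and 2.07 in GRflox and 1.05, 1.02 and 0.93 in cardioGRKO, so the genotypes did not overlap at either age. The differences were -0.999 ± 0.13 (SE, limma adjusted p = 0.068) and -1.15 ± 0.13 (limma adjusted p = 0.012). The sources used here do not say whether this probe lies in the deleted part. Cardiomyocyte markers were detected as labelled, with 8 of 9 well above background on all 12 arrays, and so were 10 of 10 fibroblast markers.

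Collagen transcripts fell between 1 and 2 months of age in both genotypes, and none of them passed the test for the knockout at either age. In GRflox hearts 13 of 38 collagen genes were lower at 2 months and 0 were higher at an adjusted p under 0.05, where 1.42% of all genes tested passed as lower and 0.8% as higher. In cardioGRKO hearts 12 of 38 were lower and 0 higher, against 0.498% and 0.324% of all genes. The 12 genes were the same in both, which is 92.3% of those in GRflox and 100% of those in cardioGRKO. The 2 comparisons share no hearts, but they share each gene's estimate of spread over all 12 arrays, so the 2 tests are not independent. With only the 6 arrays compared, 0 collagen genes and 0 of all genes passed as lower in either genotype. The 12 were the fibril-forming Col1a1, Col1a2, Col3a1, Col5a1 and Col5a2, the basement membrane genes Col4a1 and Col4a2, the type VI genes Col6a1, Col6a2 and Col6a3, and Col15a1 and Col16a1. Col5a3 passed in GRflox and not in cardioGRKO. In whole hearts, fewer cells of a type and less RNA per cell cannot be told apart.

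Over the 38 genes, 28 were below 0 in GRflox and 30 in cardioGRKO, with medians of -0.55 and -0.61 on the log2 scale. The medians over all genes tested were 0.12 and 0.08. At an unadjusted p under 0.05 there were 20 of 38 in GRflox and 23 of 38 in cardioGRKO, where 15.9% and 14.8% of all genes passed that mark. Hearts of 2 months lay wholly below hearts of 1 month for 19 of 38 collagen genes in GRflox, where 8.85% of all genes did so, and for 23 of 38 in cardioGRKO, where 11.7% did. They lay wholly above for 3 of 38 in GRflox and 1 of 38 in cardioGRKO, where 14.4% and 13% of all genes did, and in either direction 23.2% and 24.7% of all genes did not overlap. The count of 12 in cardioGRKO rested on the full set of hearts. It was 5 without replicate 2 of the 1 month group, where 18 of all genes (0.0822%) passed as lower. It was 0 without replicate 1 or 3 of that group or any of the 3 hearts of 2 months. In those 5 fits between 0 and 1 of all genes tested passed as lower. The count in GRflox was 8 without replicate 2 of the 1 month group, where 0.471% of all genes passed as lower. It was 8 to 13 over all such omissions, where 0.471% to 1.32% of all genes did. Without the 4 hearts whose mean centred level of 6 lung markers was above 1 (GRflox replicate 1 and cardioGRKO replicates 1 and 3 of 1 month and GRflox replicate 3 of 2 months), which leaves 1 cardioGRKO heart of 1 month, it was 0 in both genotypes, while 0 of all genes passed as lower in GRflox and 2 in cardioGRKO. With arrays centred on their median instead, 1 gene passed in GRflox and 0 in cardioGRKO, and with slide as a fixed term 0 passed in cardioGRKO. Over all genes 0.315% passed as lower in GRflox with median centring, and 0% in cardioGRKO in either of these fits. The GRflox hearts of 1 month had slide 1 to themselves, so their age change and that slide cannot be told apart. Each gene that passed stayed below 0 in every alternative fit that was run, in 273 of 273 values in GRflox and 264 of 264 in cardioGRKO. Some of these fits, such as that with only the 6 arrays compared, left the estimates as they were, so their signs could not differ. The genes were also chosen for a fall in these same hearts, so these counts are no independent support for it.

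**Figure D1:**
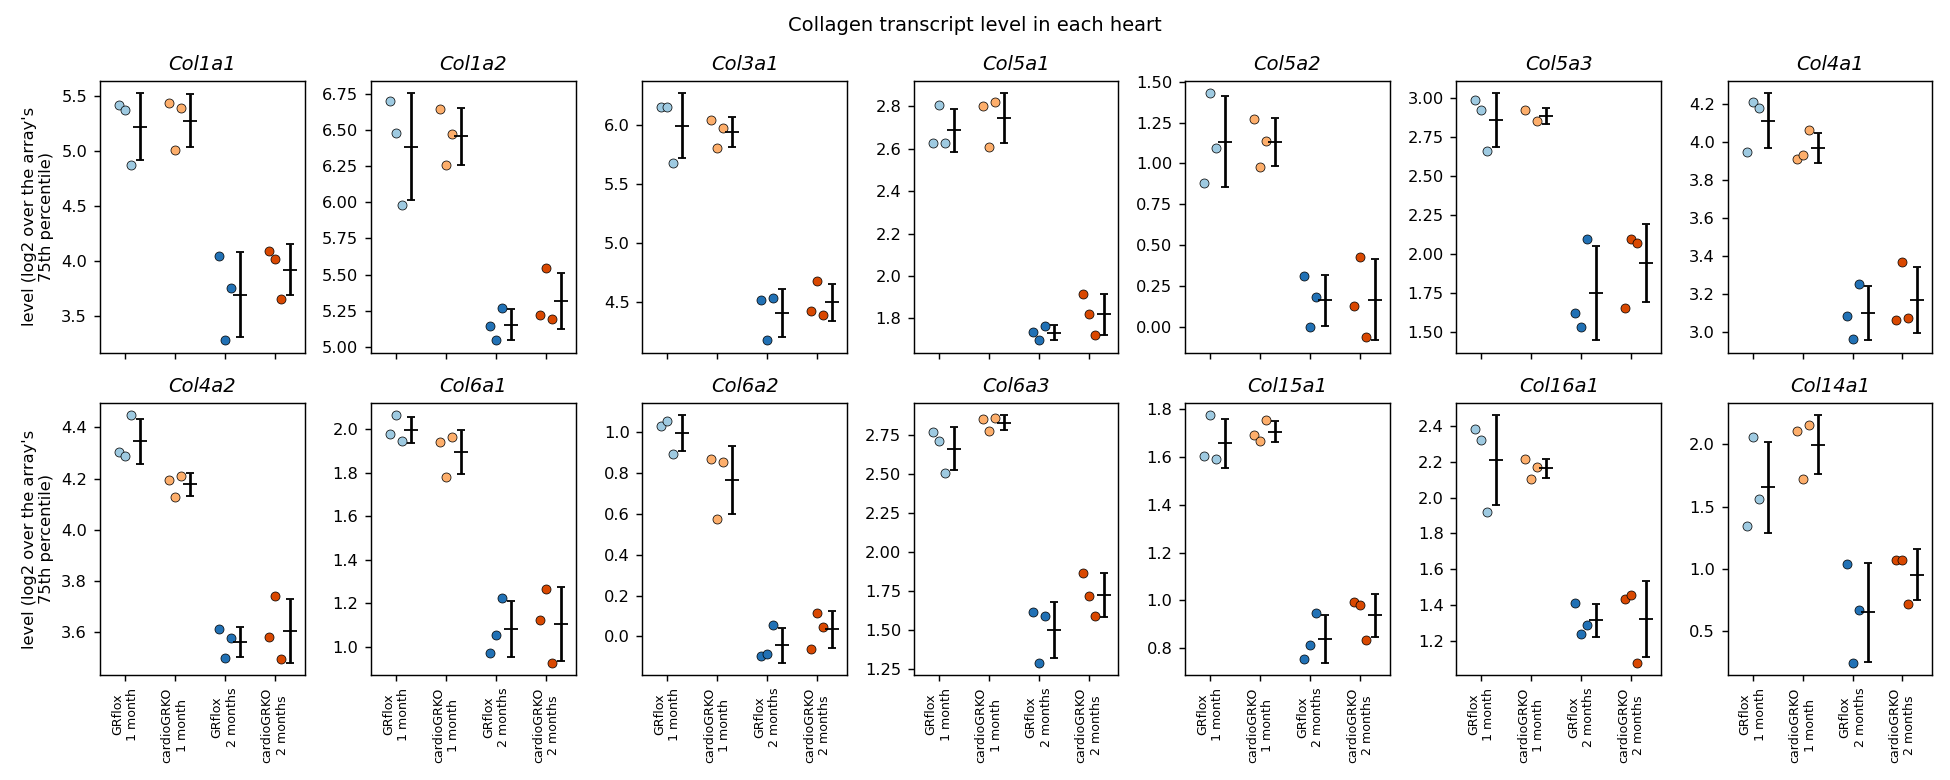
Level of 14 collagen genes in each heart, as log2 of the signal over the array's 75th percentile, by genotype and age. Points are hearts, and the bar beside them is the mean and SD of the group (3 hearts, except Col5a3 in cardioGRKO at 1 month, where 1 spot was left out as non-uniform). In all 14 genes the hearts of 2 months lie below those of 1 month in both genotypes; Col14a1 did not pass the test.

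The chains of types I and III showed the largest falls among the genes that passed in either genotype. Col1a1 encodes the alpha 1 chain of type I collagen, the main component of cardiac fibrils. At 1 month its level was 5.42, 5.38 and 4.88 in GRflox hearts and 5.44, 5.01 and 5.39 in cardioGRKO hearts. At 2 months it was 4.05, 3.28 and 3.76 in GRflox and 4.09, 4.02 and 3.66 in cardioGRKO. The lowest heart of 1 month was above the highest heart of 2 months, and the genotypes overlapped at each age. Col1a1 fell by 1.53 ± 0.23 in GRflox (2.89-fold, limma adjusted p = 0.014) and by 1.36 ± 0.23 in cardioGRKO (2.57-fold, adjusted p = 0.042).

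Its partner chain in the type I fibre, Col1a2, fell by 1.23 ± 0.19 in GRflox (limma adjusted p = 0.014) and by 1.14 ± 0.19 in cardioGRKO (adjusted p = 0.039). Col3a1 encodes type III collagen, which forms thinner fibrils together with type I. Its level at 1 month was 6.15, 6.16 and 5.68 in GRflox and 6.05, 5.81 and 5.97 in cardioGRKO. At 2 months it was 4.51, 4.17 and 4.53 in GRflox and 4.42, 4.67 and 4.39 in cardioGRKO. The highest heart of 2 months, at 4.67, lay below the lowest heart of 1 month, at 5.68. The fall was 3.01-fold in GRflox (log2 -1.59 ± 0.16, limma adjusted p = 0.0035) and 2.73-fold in cardioGRKO (log2 -1.45 ± 0.16, adjusted p = 0.013).

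Type V collagen is incorporated into type I fibrils and limits their diameter. Col5a1 was measured at 2.63, 2.81 and 2.63 in GRflox and at 2.80, 2.61 and 2.82 in cardioGRKO at 1 month. At 2 months it was 1.74, 1.70 and 1.76 in GRflox and 1.92, 1.82 and 1.72 in cardioGRKO. The genotypes overlapped at each age, and the ages did not overlap. It fell by 0.96 ± 0.09 in GRflox (1.94-fold, limma adjusted p = 0.0035) and by 0.92 ± 0.09 in cardioGRKO (1.90-fold, adjusted p = 0.013). Col5a2 fell by 0.97 ± 0.17 (limma adjusted p = 0.026) and by 0.96 ± 0.17 (adjusted p = 0.047). Col5a3, a chain of a less common type V isoform, fell by 1.11 ± 0.18 in GRflox (limma adjusted p = 0.025). In cardioGRKO its change was -0.94 ± 0.21 with an adjusted p of 0.089, and 1 heart of 1 month was missing from that value.

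Promoters are shown for 3 of the genes, because they encode chains found together in cardiac fibrils and fell together. Each is the 250 bases before the annotated start, from RefSeq (GRCm38.p6), 5′ to 3′ on the coding strand, with capitals for matches, on either strand, to the CCAAT box, to the TATA box in the form TATAAA, and to the GC box in the form GGGCGG. Of the 40 members 32 matched the promoter table, and 11 of those were among the 13 that fell; Col1a1 and Col5a2 were not matched.
Col1a2, chr6:4505368-4505617, plus strand: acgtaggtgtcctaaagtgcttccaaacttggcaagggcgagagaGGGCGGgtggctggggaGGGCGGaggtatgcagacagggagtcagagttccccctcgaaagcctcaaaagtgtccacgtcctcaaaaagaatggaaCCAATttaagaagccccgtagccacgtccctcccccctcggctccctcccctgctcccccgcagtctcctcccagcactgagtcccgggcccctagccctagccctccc
Col3a1, chr1:45311288-45311537, plus strand: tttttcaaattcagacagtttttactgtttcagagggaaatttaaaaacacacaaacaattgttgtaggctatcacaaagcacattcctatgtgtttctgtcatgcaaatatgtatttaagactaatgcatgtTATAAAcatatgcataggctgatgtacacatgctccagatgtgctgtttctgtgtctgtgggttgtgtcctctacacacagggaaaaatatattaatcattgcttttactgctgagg
Col5a1, chr2:27886175-27886424, plus strand: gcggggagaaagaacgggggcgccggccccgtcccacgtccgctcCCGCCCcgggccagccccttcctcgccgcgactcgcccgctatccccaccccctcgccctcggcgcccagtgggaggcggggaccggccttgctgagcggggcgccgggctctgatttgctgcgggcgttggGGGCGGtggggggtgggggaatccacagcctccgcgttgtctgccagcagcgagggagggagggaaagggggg

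The windows differ in letters although the genes moved together. CCAAT was found in the window of 5 of the 11 genes that fell and in 34.5% of all 27025 promoters. GGGCGG was found in 6 of 11 and in 32.9% of all, and TATAAA in 1 of 11, Col3a1, and in 12.97% of all. The half-site AGAACA, bound by the glucocorticoid receptor among others, was in 0 of 11 windows and in 16.2% of all, and the full palindromic glucocorticoid response element was in 0 of 11 and in 1 promoter overall. In all 32 matched members, whether or not they fell, CCAAT was found in 11, GGGCGG in 18 (56.25%) and TATAAA in 5. AGAACA was found in 2 of the 32, Col20a1 and Col9a1. A match is a description of letters and says nothing on binding.

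The second probes of Col5a1, Col5a3 and Col11a2 were designed inside the helix-coding part. They were the 3 probes, among all probes on the array, in which a glycine codon (GGN) recurs every 9 bases over the whole length, and none of them represented its gene. They are shown because they print the Gly-X-Y repeat of collagen and because their values differ from those of the brighter probes. Capitals mark the glycine codons, and each position runs from the first to the last base of the probe in build mm7, introns included.
Col5a1, chr2:27994034-27996457, plus strand: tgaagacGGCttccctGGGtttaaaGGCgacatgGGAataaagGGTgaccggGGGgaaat
Col5a3, chr9:20655471-20656200, minus strand: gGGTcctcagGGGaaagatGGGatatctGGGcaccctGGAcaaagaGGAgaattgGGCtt
Col11a2, chr17:32131401-32131567, plus strand: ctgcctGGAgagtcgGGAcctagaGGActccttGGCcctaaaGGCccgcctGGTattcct

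These probes were dim, with mean signals of 118, 64.8 and 62.7 scanner units, against 5642, 5811 and 330 for the probes that represent Col5a1, Col5a3 and Col11a2. The age change at the repeat probe of Col5a1 was -0.13 ± 0.32 in GRflox and -0.46 ± 0.32 in cardioGRKO, and the GRflox value was -0.54 without replicate 2 and 0.16 without replicate 1 of the 2 month group. At the repeat probe of Col5a3 it was 0.97 ± 0.65 and 0.44 ± 0.65, opposite in sign to the probe that represents the gene. GRflox replicate 2 of 2 months, on the array with 82.2% of probes well above background, read -2.19 at this Col5a3 probe against -5.13 and -4.28 in the other hearts of its group, and without it the GRflox change was 0.13. None of these values passed the test. With all entering probes of a gene averaged, Col5a3 changed by -0.07 in GRflox. For 4 other genes the probes ran in the same direction. In GRflox the 3 probes of Col1a1 changed by -1.53, -1.37 and -1.09, and 2 of Col3a1 by -1.59 and -1.36. Those of Col4a1 changed by -1.01 and -0.88, and those of Col4a2 by -0.79 and -0.77.

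**Figure D2:**
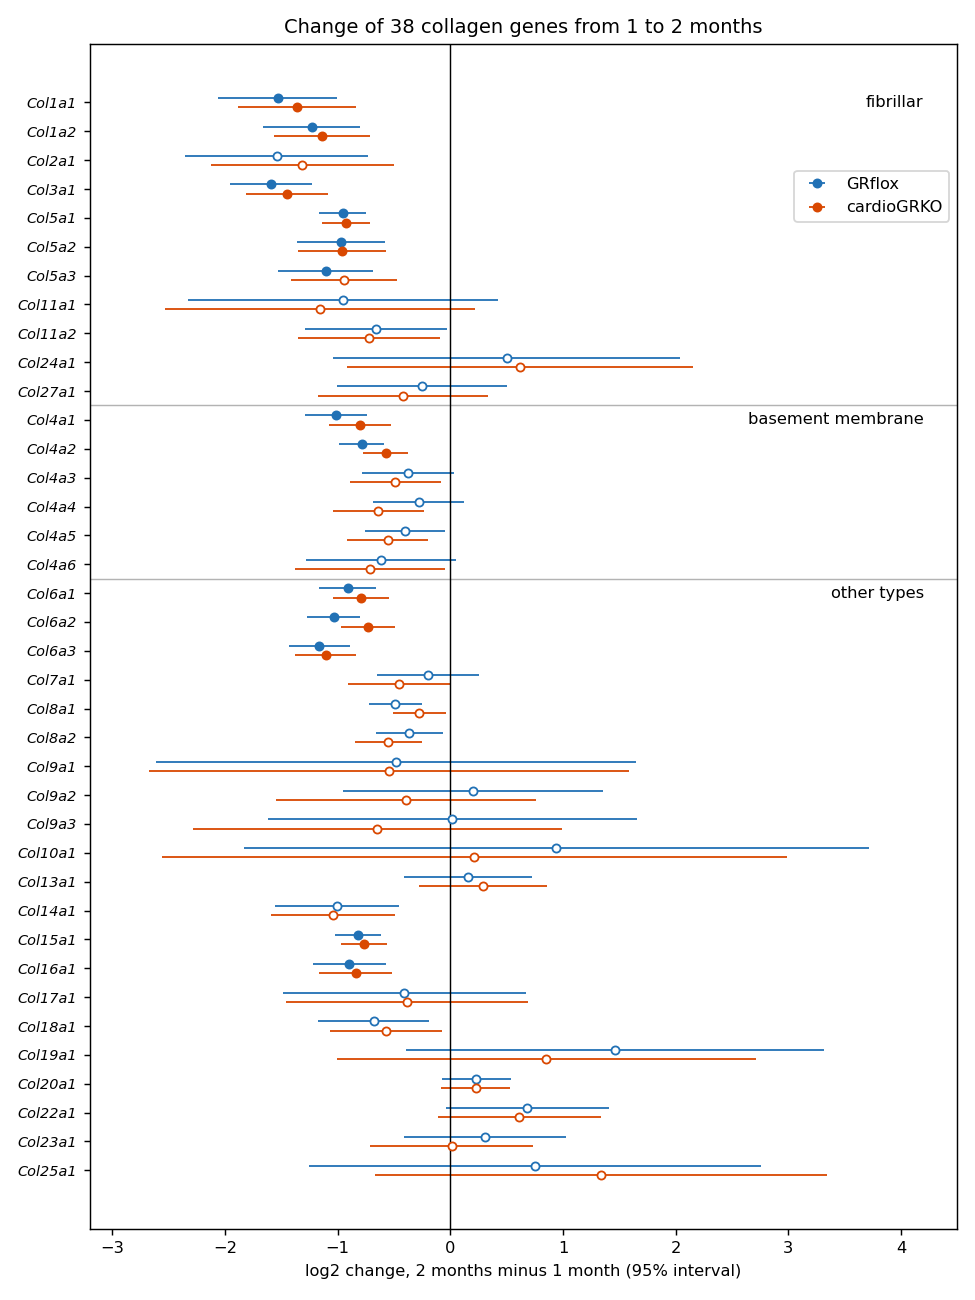
Log2 change from 1 to 2 months of age for the 38 collagen genes tested, in GRflox (blue) and cardioGRKO (orange), with 95% intervals from the fit. Filled points passed an adjusted p under 0.05 and open points did not; 13 GRflox and 12 cardioGRKO points are filled, all of them left of 0.

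Of the 11 fibrillar genes, 6 passed as lower in GRflox and 5 in cardioGRKO, with medians of -0.97 and -0.96. The remaining ones are the cartilage-type chains Col2a1, Col11a1 and Col11a2 and the minor chains Col24a1 and Col27a1, none of which passed. Col2a1 encodes the main collagen of cartilage. Its 2 probes above background on all 12 arrays share 40 bases and gave unlike values, so both are printed, with the shared bases in capitals. Both lie on the minus strand of chromosome 15 in mm7.
Col2a1 brighter probe, chr15:97979237-97979296: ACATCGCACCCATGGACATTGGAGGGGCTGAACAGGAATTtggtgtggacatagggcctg
Col2a1 dimmer probe, chr15:97979257-97979316: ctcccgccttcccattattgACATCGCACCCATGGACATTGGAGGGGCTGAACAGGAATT

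The brighter probe read 1.38, 0.95 and 0.38 in GRflox and 0.62, 0.32 and 1.18 in cardioGRKO at 1 month. By 2 months the readings were -0.99, -0.61 and -0.31 in GRflox and -0.30, -0.26 and -1.27 in cardioGRKO. The ages did not overlap, as for Col1a1. Its change was -1.54 ± 0.36 in GRflox (limma adjusted p = 0.067) and -1.31 ± 0.36 in cardioGRKO (adjusted p = 0.13), so it did not pass. The dimmer probe read 0.18, -2.27 and -2.08 in GRflox and -0.30, -3.13 and 0.00 in cardioGRKO at 1 month. In hearts of 2 months it was -2.48, -1.95 and -1.67 in GRflox and -1.97, -1.71 and -0.83 in cardioGRKO. Here the ages overlapped, and the high readings were those of GRflox replicate 1 and cardioGRKO replicates 1 and 3 of 1 month and cardioGRKO replicate 3 of 2 months. The changes at this probe were -0.64 ± 0.88 and -0.36 ± 0.88.

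The other cartilage-type chains were not alike. Col11a2, a chain of type XI collagen, read -1.17, -2.01 and -1.79 at 1 month and -2.55, -2.13 and -2.27 at 2 months in GRflox, with no overlap of the ages. In cardioGRKO it read -1.17, -1.88 and -1.09 against -2.05, -2.43 and -1.82, where the ages overlapped. Its changes were -0.66 ± 0.28 and -0.72 ± 0.28 (limma adjusted p = 0.29 and 0.27). Col9a1, a chain of the type IX collagen that coats cartilage fibrils, read -2.97, -5.08 and -4.75 in GRflox and -3.95, -6.00 and -2.94 in cardioGRKO at 1 month. A month later it was -6.02, -3.04 and -5.18 in GRflox and -5.23, -4.74 and -4.56 in cardioGRKO. Col9a1 and Col9a3 were dim, with mean signals of 61.6 and 51.6 scanner units. The 4 highest hearts for both were GRflox replicate 1 and cardioGRKO replicates 1 and 3 of 1 month, and GRflox replicate 2 of 2 months. The last was on the array with 82.2% of probes well above background, the highest share of the 12. Aggrecan (Acan), a cartilage proteoglycan, was -1.85, -2.32, -2.18 and -2.40 in those 4 hearts and -4.09 to -2.58 in the other 8. Snorc, another cartilage gene, was -1.69, -3.04, -1.90 and -2.75 there and -6.40 to -3.59 elsewhere. Some others of the cartilage list peaked in other hearts. Chad and Epyc were highest in cardioGRKO replicate 3 of 2 months, at -0.10 and -1.19. Sox9 was highest in cardioGRKO replicate 2 of 1 month, at -0.73. Of the 4 hearts highest for Col9a1, the 3 of 1 month had mean centred log2 levels over 6 lung genes of 2.53, 1.83 and 2.13. Scgb1a1, Scgb3a2 and Sftpa1 were high in them, but not every gene of the list was. Ager read -5.99, -4.96 and -6.59 there, against a mean of -5.57 over the 12 hearts. Sftpc was highest in GRflox replicate 2 of 1 month, at -2.05. Of the GRflox hearts of 2 months, replicate 2 had a mean of 0.59 and replicate 3 one of 1.29. Summed over the list, the lung level was -0.37 in replicate 2 and 3.97 in replicate 3, while the 3 hearts of 1 month were at 5.99, 3.99 and 5.63. The lung gene Scgb3a2 read -1.55 in replicate 2 and 3.21 in replicate 3. In the cartilage list, 6 of 10 markers were well above background on all 12 arrays, while Matn1 and Matn3 were above it on 1 array each. Both read highest in GRflox replicate 2 of 2 months, at -4.15 and -4.53. The summed cartilage level ranged from 2.19 to 2.61 (log2) at 1 month and from 2.22 to 2.64 at 2 months. The part of such tissue in these readings was not tested. No cartilage-type chain passed in any comparison.

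**Figure D3:**
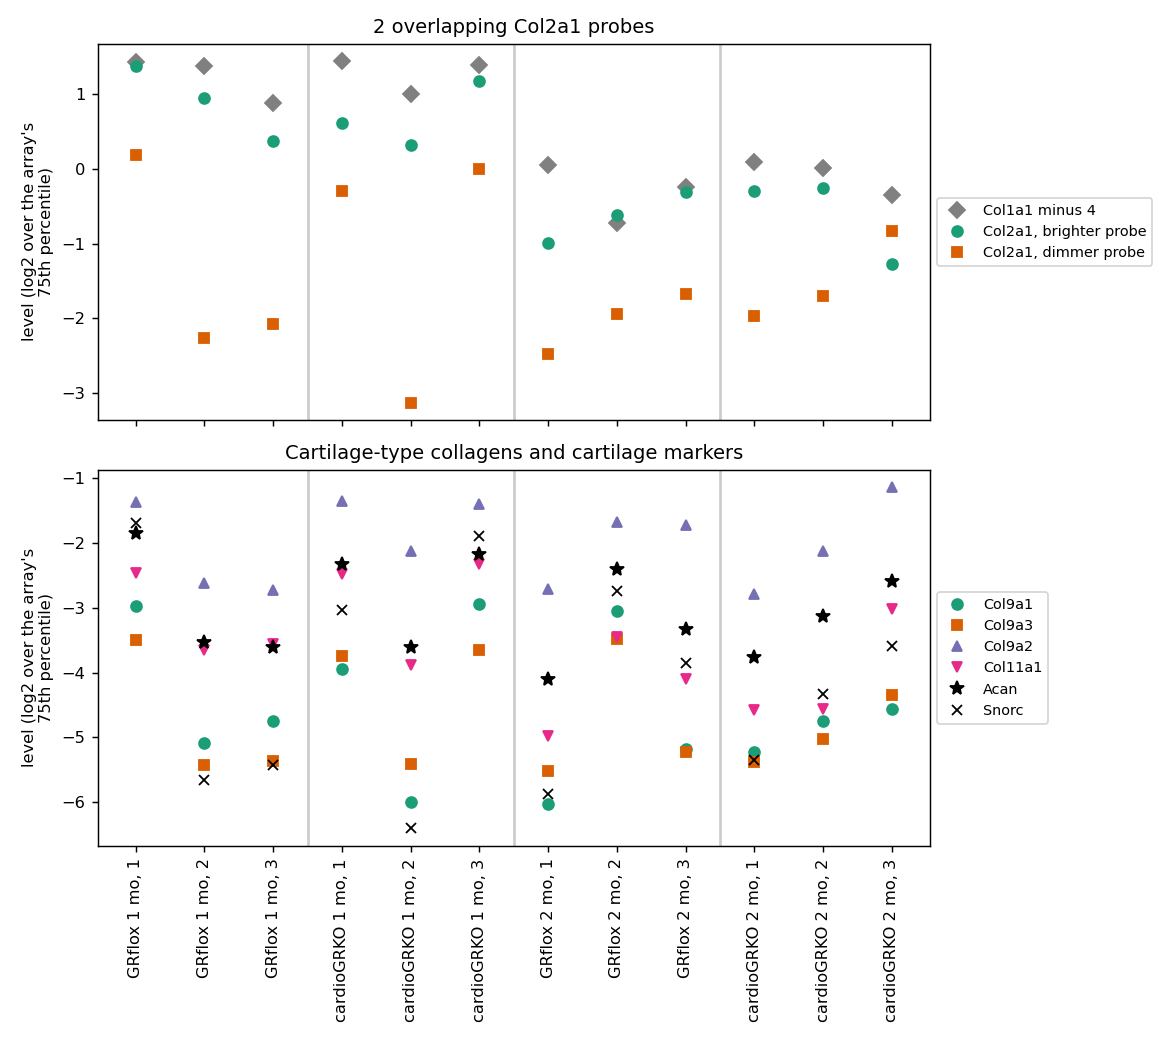
Level in each of the 12 hearts, as log2 of the signal over the array's 75th percentile. The upper panel shows both overlapping Col2a1 probes and Col1a1 lowered by 4 to fit the axis; the lower panel shows Col9a1, Col9a2, Col9a3 and Col11a1 with the cartilage genes Acan and Snorc. The brighter Col2a1 probe separates the ages, while the dimmer probe and the chains of the lower panel are high in single hearts of either age.

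Among the 6 type IV genes, Col4a1 and Col4a2 passed as lower in both genotypes and the other 4 did not. These chains form the network found in all basement membranes. Col4a2 was 4.30, 4.29 and 4.45 in GRflox and 4.19, 4.13 and 4.21 in cardioGRKO at 1 month. The hearts of 2 months stood at 3.61, 3.50 and 3.58 in GRflox and 3.58, 3.74 and 3.49 in cardioGRKO. All hearts of 2 months were below all hearts of 1 month. Col4a2 fell by 0.79 ± 0.09 in GRflox (1.72-fold, limma adjusted p = 0.0046) and by 0.57 ± 0.09 in cardioGRKO (1.49-fold, adjusted p = 0.035). Col4a1 fell by 1.01 ± 0.12 (2.02-fold, limma adjusted p = 0.0057) and by 0.80 ± 0.12 (1.74-fold, adjusted p = 0.032). The start sites of Col4a1 and Col4a2 lie 21 bases apart on opposite strands of chromosome 8 in RefSeq (GRCm38.p6), and the pair is known for a promoter shared in both directions. Col4a3, Col4a4, Col4a5 and Col4a6 are the chains of specialised basement membranes. At the probes that represent them they were below 0 in both genotypes, at -0.28 to -0.62 in GRflox and -0.49 to -0.71 in cardioGRKO, and none passed. Their dimmer probes were mixed. A dimmer Col4a6 probe read -1.27, -1.43 and -1.39 in GRflox at 1 month and -1.25, -0.39 and -1.09 at 2 months. In cardioGRKO it read -0.08, -0.93 and -1.19 against -1.20, -0.40 and 0.165. The dimmest read -3.49, -3.32 and -4.42 in GRflox against -4.34, -4.03 and -4.17. A second Col4a4 probe in cardioGRKO read 0.22, -0.35 and -0.29 against -0.335, 0.12 and -0.10.

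All 3 type VI genes fell in both genotypes. Col6a1 fell by 0.91 ± 0.11 in GRflox and by 0.79 ± 0.11 in cardioGRKO (limma adjusted p = 0.0057 and 0.027). Col6a2 fell by 1.04 ± 0.11 and by 0.73 ± 0.11 (limma adjusted p = 0.0035 and 0.027). Col6a3, whose product adds the long chain of the type VI monomer, fell by 1.16 ± 0.12 and by 1.11 ± 0.12 (limma adjusted p = 0.0035 and 0.013). Its level was 2.77, 2.71 and 2.51 in GRflox hearts of 1 month against 1.62, 1.29 and 1.59 at 2 months. In cardioGRKO it was 2.85, 2.78 and 2.86 against 1.87, 1.72 and 1.59. A dimmer Col6a3 probe changed by 0.08 ± 0.59 in GRflox and by -0.61 ± 0.59 in cardioGRKO, and without replicate 2 of the 2 month group the GRflox value was -0.70.

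The remaining types were mixed. Col15a1, a basement membrane zone collagen, fell by 0.82 ± 0.09 in GRflox (limma adjusted p = 0.0042) and by 0.77 ± 0.09 in cardioGRKO (adjusted p = 0.015). Col16a1, which belongs to the collagens that associate with fibrils, fell by 0.90 ± 0.14 (limma adjusted p = 0.017) and by 0.84 ± 0.14 (adjusted p = 0.042). Col14a1 is another fibril-associated collagen. It read 1.34, 2.06 and 1.56 in GRflox of 1 month against 1.04, 0.25 and 0.67 at 2 months, and 2.11, 1.72 and 2.16 against 1.07, 1.07 and 0.72 in cardioGRKO. The ages did not overlap, but its changes of -1.004 ± 0.24 and -1.04 ± 0.24 did not pass (limma adjusted p = 0.076 and 0.093).

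Col8a1, a short-chain collagen of vessels, changed by -0.49 ± 0.10 in GRflox and by -0.27 ± 0.10 in cardioGRKO (limma adjusted p = 0.0501 and 0.26). Col18a1, the source of endostatin, changed by -0.68 ± 0.22 and by -0.57 ± 0.22 (limma adjusted p = 0.17 and 0.27). The 8 members above 0 in both genotypes had mean signals of 29.4 to 390.0 scanner units, and none passed. They were Col10a1, Col13a1, Col19a1, Col20a1, Col22a1, Col23a1, Col24a1 and Col25a1. Col22a1, found at tissue junctions of muscle, was the brightest of the fibril-associated chains among them and changed by 0.68 ± 0.32 and 0.61 ± 0.32 (limma adjusted p = 0.34 and 0.43). Col19a1 was not well above background in any GRflox heart of 1 month and in 2 of 3 at 2 months, where a bound put its mean 1.93-fold higher. That bound sets each dim array at its dimmest probe well above background. In cardioGRKO hearts of 1 month it was above background on 1 of 3 arrays and read -3.31, -5.56 and -6.07, and neither difference passed (limma adjusted p = 0.42 and 0.83). Its highest readings were -2.65 in cardioGRKO replicate 3 of 2 months and -3.31 in replicate 1 of 1 month. Both were on arrays with over 79% of probes well above background.

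Both ages lay together on slides 2 and 4. On slide 2, GRflox hearts of 2 months minus cardioGRKO hearts of 1 month gave values below 0 for 29 of 38 collagen genes tested, with a median of -0.74, against 7896 of 21876 genes in all, with a median of 0.12. On slide 4, with 1 cardioGRKO heart of each age, 31 of 38 were below 0 with a median of -0.69, against 8551 of 21880 genes in all, with a median of 0.09. Col1a1 read -1.54 on slide 2 and -1.79 on slide 4. Slide 2 compares across genotypes, so its values hold an age and a genotype difference together.

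The fall with age was also compared between genotypes. The difference of the age changes, cardioGRKO minus GRflox, equals the difference of the knockout effects between ages. None of 38 collagen genes passed for it by limma (0% of all genes passed), and 0 of 38 had an unadjusted p under 0.05, where 1.34% of all genes did. The difference was 0.17 for Col1a1 with a 95% interval of -0.57 to 0.92, and 0.14 for Col3a1 with one of -0.37 to 0.66. For Col5a1 it was 0.03 (-0.27 to 0.33) and for Col4a2 0.21 (-0.07 to 0.50). Over the 38 genes the median difference was 0.01, and it was -0.03 over all genes. A p that misses the threshold does not show that the genotypes changed alike. The difference also rests on the GRflox hearts of 1 month, so it cannot be told apart from slide 1, which held no others.

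The knockout was then compared with its littermates at each age. The GRflox hearts of 1 month had slide 1 to themselves, so the knockout effect at 1 month and that slide cannot be told apart. None of 38 collagen genes passed at 1 month, where 0.0274% of all genes did, and none at 2 months, where 0.137% did, 0.0777% higher and 0.0594% lower. By unadjusted p under 0.05 there were 2 of 38 at 1 month, where 6.12% of all genes passed that mark, and 1 of 38 at 2 months, where 7.82% did. The medians over collagen genes were 0.06 and 0.08, against 0.04 and 0.02 over all genes. Groups did not overlap for 7 of 38 genes at 1 month, where 17.7% of all genes did not overlap. They were 5 higher in the knockout (Col4a3, Col4a4, Col4a5, Col6a3 and Col19a1), against 8.83% of all genes, and 2 lower (Col4a2 and Col6a2), against 8.89%. At 2 months 1 gene, Col8a1, was higher without overlap and 0 were lower, where 12.8% of all genes did not overlap, 5.83% higher and 6.98% lower.

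For the 4 chains described in full, the interval of the knockout effect is given. At 1 month Col1a1 differed by 0.05 (95% interval -0.47 to 0.58), Col3a1 by -0.05 (-0.42 to 0.31) and Col5a1 by 0.06 (-0.15 to 0.27). At 2 months the differences were 0.23 (-0.30 to 0.75), 0.09 (-0.28 to 0.45) and 0.09 (-0.12 to 0.30). Col4a2 was lower in all 3 knockout hearts of 1 month than in their controls, by -0.17 (-0.37 to 0.03), and differed by 0.04 (-0.16 to 0.24) at 2 months. None of these intervals excluded 0. All of them lay within 1 log2 unit of 0.

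The lowest unadjusted p at 1 month was that of Col4a4. It read -0.13, 0.20 and 0.35 in GRflox and 0.77, 0.87 and 0.85 in cardioGRKO, so the groups did not overlap. The difference was 0.69 ± 0.18 (1.61-fold, limma adjusted p = 0.55). A second Col4a4 probe differed by 0.03 ± 0.20. Col4a5, its partner on the X chromosome, differed by 0.40 ± 0.16 (limma adjusted p = 0.77), and Col4a3 by 0.29 ± 0.18 (adjusted p = 0.84). A second Col4a3 probe read -3.72, -3.74 and -3.92 in GRflox of 1 month and -3.61, -4.05 and -3.67 in cardioGRKO, with overlap. The dimmest Col4a3 probe read -7.74, -7.96 and -8.12 against -4.62, -7.68 and -7.59. At 2 months these 3 genes differed by 0.33, 0.24 and 0.18, and their groups overlapped. Col8a1 read 3.39, 3.35 and 3.35 in GRflox of 2 months and 3.69, 3.72 and 3.42 in cardioGRKO, a difference of 0.24 ± 0.10 (limma adjusted p = 0.62). A dimmer Col8a1 probe read 0.33, -0.30 and -0.05 in GRflox of 2 months and 1.10, 0.70 and 0.23 in cardioGRKO, and there the groups overlapped.

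**Figure D4:**
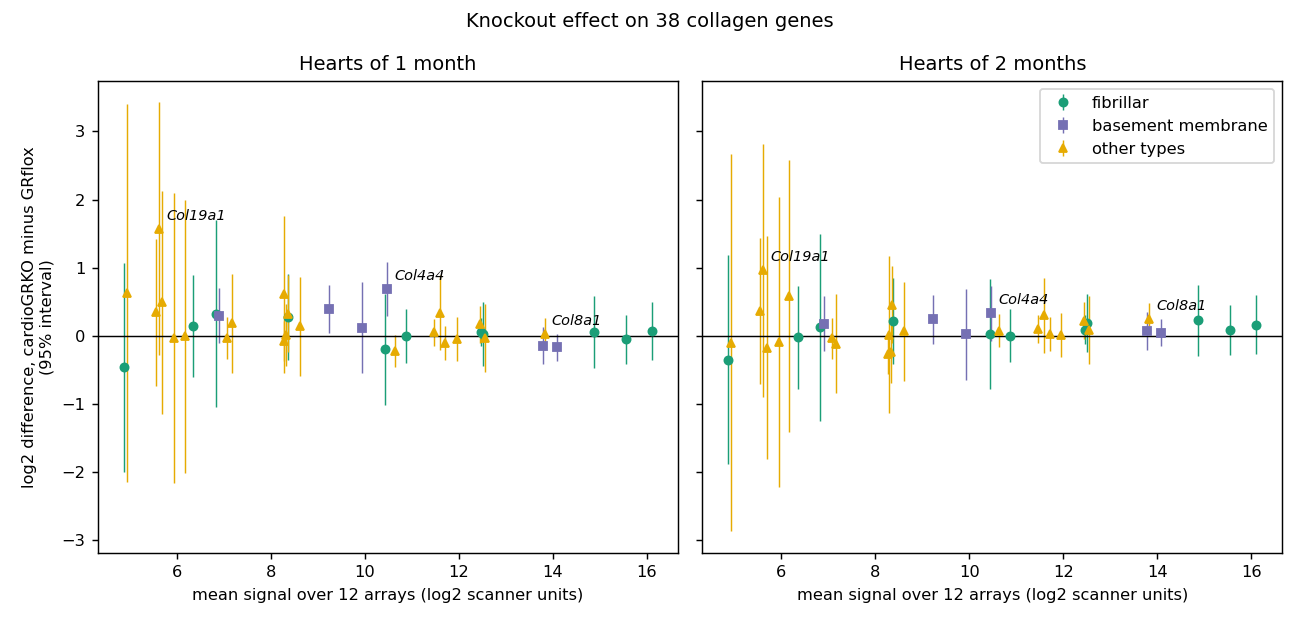
Difference between cardioGRKO and GRflox hearts for the 38 collagen genes, at 1 month (left) and 2 months (right), with 95% intervals, against the mean signal of each gene's probe on a log2 scale. No gene passed an adjusted p under 0.05; the intervals are wide for dim probes and narrow for bright ones.

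The genes that build collagen fibrils were examined beside the chains. Of all genes tested, 1.42% passed as lower with age in GRflox and 0.498% in cardioGRKO, and the all-gene medians were 0.12 and 0.08. Among 15 tested genes of propeptide cleavage and fibril assembly, 4 passed as lower with age in GRflox and 2 in cardioGRKO, with medians of -0.34 and -0.31. Sparc, a collagen-binding matricellular protein, fell by 1.33 ± 0.13 and by 1.19 ± 0.13 (limma adjusted p = 0.0035 and 0.013). Fibronectin (Fn1) fell by 1.07 ± 0.18 and by 1.22 ± 0.18 (limma adjusted p = 0.021 and 0.027). Pcolce, an enhancer of procollagen cleavage, fell by 0.59 in GRflox, as did the fibril-binding proteoglycan Lum by 0.60. Of 6 cross-linking enzymes, Loxl2 passed in both genotypes, at -1.14 ± 0.12 and -1.17 ± 0.12 (limma adjusted p = 0.0040 and 0.013). Of 19 genes of hydroxylation, folding and secretion, 1 passed in GRflox, the prolyl isomerase Ppib at -0.69 ± 0.12 (limma adjusted p = 0.022), and 0 in cardioGRKO. Serpinh1, the collagen chaperone and the brightest of that list, changed by -0.55 and -0.49 without passing.

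Basement membrane partners of type IV collagen were tested next, where 1.42% of all genes passed as lower in GRflox and 0.498% in cardioGRKO. Of 14, 6 passed as lower in GRflox (Lama4, Lamc1, Nid1, Nid2, Agrn and Pxdn) and 3 in cardioGRKO (Nid2, Agrn and Pxdn). Pxdn, the peroxidase that cross-links type IV collagen, fell by 0.86 ± 0.13 and by 0.73 ± 0.13 (limma adjusted p = 0.012 and 0.042). The collagen receptors and uptake genes gave 0 of 10, with Ddr1 at -0.22 and 0.00 and Itgb1 at -0.11 and -0.12. The TGF-beta pathway gave 0 of 17, with Ltbp4 at -0.29 and -0.02 and Ccn2 at 0.00 and 0.87 (limma adjusted p = 0.99 and 0.086). No gene of these 6 lists passed for the knockout at either age, where 0.0274% of all genes did at 1 month and 0.137% at 2 months.

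Markers of the cell types in the heart were read beside the chains. Among all genes tested, 1.42% passed as lower with age in GRflox and 0.498% in cardioGRKO. The shares of all genes below 0 were 36.0% and 39.0%, and the all-gene medians were 0.12 and 0.08. Of 10 fibroblast markers, 2 passed as lower in GRflox (Mfap5 and Lum) and 1 in cardioGRKO (Mfap5), and 8 of 10 were below 0 in each, with medians of -0.37 and -0.34. The median centred level of the fibroblast list ranged from 0.12 to 0.27 in the 6 hearts of 1 month and from -0.24 to -0.06 in the 6 hearts of 2 months. The summed level of the same list overlapped, at 8.94 to 9.15 and 9.03 to 9.24 (log2). Of 8 proliferation markers, 7 passed as lower in GRflox and 2 in cardioGRKO, with medians of -1.99 and -1.24. Of 6 markers of activated fibroblasts, 0 passed and 5 were below 0 in each genotype, with medians of -1.07 and -0.99; Postn changed by -1.11 and -1.28 (limma adjusted p = 0.052 and 0.051). Of 9 cardiomyocyte markers 0 passed, with medians of 0.02 and 0.25. Of 9 smooth muscle and pericyte markers, Pdgfrb passed as lower in GRflox and none in cardioGRKO, with 7 and 8 below 0 and medians of -0.34 and -0.18. Their median centred level ranged from 0.04 to 0.24 in hearts of 1 month and from -0.20 to -0.04 at 2 months, without overlap. Their summed level overlapped, at 6.52 to 7.03 and 6.43 to 6.62 (log2). Of 9 macrophage markers, Cd68 passed as lower in GRflox and none in cardioGRKO, with 8 and 7 below 0 and medians of -0.28 and -0.15. Of 9 endothelial markers 0 passed and 8 were below 0 in both genotypes, with medians of -0.25 and -0.23. Of 7 adipocyte markers 0 passed, with 6 and 7 below 0 and medians of -0.66 and -1.36. In that list 2 hearts stood apart, GRflox replicate 3 of 1 month at a median centred level of -3.49 and GRflox replicate 2 of 2 months at -3.03, while the other 10 lay between -0.69 and 1.65. Of 6 markers of mesothelium and epicardium, 0 passed and 6 were below 0 in both genotypes, with medians of -0.39 and -0.74. The part of such cells in the collagen change was not tested.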

How the data were processed

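Total RNA of 12 whole hearts was labelled with Cy3, per the labels' protocols, and each array was read with Agilent Feature Extraction 9.5, per the submitters' processing notes. The deposited files hold the authors' processed signal, a linear intensity for each spot with no step between arrays. Control spots and non-uniform spots (3 to 310 per array) were left out, spots of a probe were averaged, and each array's log2 intensity was centred on its 75th percentile. Probes well above background on at least 3 of 12 arrays entered, and the brightest probe represented a gene. Limma 3.58.1 in R 4.3.3 fitted 1 mean per group with all arrays. Two-sided p-values were adjusted by Benjamini-Hochberg over all genes tested. Errors beside log2 changes are SE of the fit. No collagen probe was saturated on any array (0 of 78). The number of arrays limits the precision.

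Named were Col1a1, Col3a1, Col5a1 and Col4a2, every collagen gene that passed, up to 3 members of each class by signal, and those whose groups did not overlap at a log2 change of at least 1. The members and gene lists were chosen with earlier results of these data known. Replicate numbers did not pair hearts: correlations of same-numbered deviations ranged from -0.69 to 0.49. Alternatives covered scaling, background, filter, probe choice, slide, scan day, arrays fitted and single hearts left out.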

Additional observations from a re-analysis of the deposited data

How the results depend on the processing

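The direction of the age change held in all alternatives for the genes that passed, but the counts of calls did not. Some of the fits could not alter that direction. The 13 in GRflox became 1 with median centring, 0 with only the 6 arrays compared, 7 without the 3 arrays with most probes above background and 0 without the 4 hearts with a mean lung marker level above 1. The 12 in cardioGRKO became 0 with median centring, 4 with no filter on dim probes, 2 with the mean of all entering probes, 0 with slide as a fixed term, 0 with only the 6 arrays compared, and 0 without the second scan day, the 3 arrays or the 4 hearts. With slide as a fixed term the age change in GRflox, the knockout effect at 1 month and the difference between ages could not be estimated. Over all genes 0 passed as lower in cardioGRKO with median centring, slide as a fixed term, only the 6 arrays compared and without the second scan day, 1 without the 3 arrays and 2 without the 4 hearts. In GRflox the all-gene counts were 69 with median centring, 0 with only the 6 arrays compared, 116 without the 3 arrays and 0 without the 4 hearts. In cardioGRKO 14 of all genes passed as lower with no filter on dim probes and 18 with the mean of all entering probes. The cause of these shifts in counts was not tested. With single hearts left out the counts ranged from 8 to 13 in GRflox and from 0 to 5 in cardioGRKO. Over all genes, 0.471% to 1.32% and 0% to 0.0822% passed as lower in those fits. In the fit with the replicate block, 11 passed in GRflox, where 0.621% of all genes passed as lower. In cardioGRKO 0 passed, where 0 of all genes did. The block changed no knockout count of the collagen genes. The added alternatives on scan day, on the 3 arrays and on the 4 hearts were chosen after seeing the data.

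The median age change in GRflox moved to -0.71 with quantile scaling, -0.80 with median centring and -0.39 with the mean of all probes, and ranged from -0.73 to -0.45 with single hearts left out. In cardioGRKO it moved to -0.45 without the 4 hearts and ranged from -0.79 to -0.56 with single hearts left out. Median centring moved the all-gene median in GRflox from 0.12 to -0.13, the collagen median of the knockout effect at 1 month to -0.17, and that of the difference between ages to 0.21; without the 4 hearts the latter was 0.24. With single hearts left out the knockout median at 1 month ranged from -0.015 to 0.20.

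Knockout effects near 0 changed sign without passing in any fit. At 1 month Col1a1 was -0.17 and Col5a1 -0.17 with median centring, Col3a1 0.021 with quantile scaling and Col5a1 -0.031 with normexp background. Col1a1 was -0.027 without the second scan day or the 3 arrays, and without the 4 hearts Col1a1 was -0.12 and Col5a1 -0.11. At 2 months Col5a1 was -0.13 with the mean of all probes (difference between ages -0.15), and Col3a1 was -0.029 with slide as a fixed term. With single hearts left out, the knockout effect at 1 month ranged from -0.12 to 0.19 for Col1a1 and from -0.21 to 0.025 for Col3a1. At 2 months it ranged from -0.030 to 0.15 for Col3a1 and from -0.024 to 0.10 for Col4a2. The difference between ages ranged from -0.037 to 0.35 for Col1a1 and from -0.036 to 0.080 for Col5a1.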

Other observations

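The rule on names leaves out collagen genes that the array lists under other names. Emid2, now named Col26a1, was above background on all 12 arrays and changed with age by -2.04 ± 0.26 in GRflox and by -1.65 ± 0.26 in cardioGRKO in a limma fit over all probes (adjusted p = 0.0088 and 0.046). It was noticed after its values were seen. E330026B02Rik, now named Col6a6, was above background on 8 arrays and changed by 0.78 ± 0.71 and 0.47 ± 0.71, so unlike Col6a1, Col6a2 and Col6a3 it was not below 0 in either genotype, though the difference was not tested.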
